A study of Mus musculus with 12 samples.

Results

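The 10 genes followed here encode receptors through which cytotoxic T cells (CTL) sense cytokines other than IL-2, and each was read on every probe set that names it: Il7r, Il6ra, Il6st, Il4ra, Il10ra, Il15ra, Il21r, Ifngr1, Tgfbr1 and Tgfbr2. These 10 genes, out of 18193 genes represented on the array, were taken as a list of names. The list was chosen with earlier results of these data known, so shares among the 10 are not those of an unselected list. Of the 45037 probe sets tested, 24 name 1 of the 10 genes. Where a gene has several probe sets, the one with the highest mean over the 12 arrays represents it, and the others are given beside it. The mRNA of all 10 genes was measured in 4 groups of 3 cultures, 1 Affymetrix mouse array each, and the question was which receptor transcripts differ when the kinase PDK1 or its substrate Akt is taken away from CTL kept in IL-2.

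All cultures were C57BL/6 splenic T cells activated for 48 h with 0.5 μg/ml CD3 antibody and then grown for 5 days in 20 ng/ml IL-2. The paper of the study names IL-2 during activation for the wild type and AktI cultures. It does not do so for the PDK1 null and Cre control cultures. PDK1 null CTL carried floxed Pdpk1 alleles (PDK1 fl/fl) and TamoxCre, a Cre recombinase in the ROSA26 locus that tamoxifen switches on, and came from 3 mice. Cre control CTL carried TamoxCre with unmodified Pdpk1 and came from 3 other mice. Both received 0.6 μM 4OHT, the active form of tamoxifen, for the last 72 h, so Cre and 4OHT are common to them. AktI CTL were wild-type CTL given 1 μM AktI-1/2, an inhibitor of Akt, for the last 48 h. Wild type CTL were the other part of the same 3 cultures without inhibitor. The labels give replicate numbers, and AktI and wild type arrays of equal number were taken as the same mouse. Deletion and inhibition thus differ in duration, and the experiments were run apart. The 2 probe sets of Pdpk1 had log2 fold changes of 0.05 (SE 0.0693, limma adjusted p = 0.822) and -0.04 (SE 0.0658, adjusted p = 0.853) in PDK1 null against Cre control CTL, and whether either one reads the deleted stretch is unknown, so they do not check the genotype.

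A cytokine receptor is assembled from chains that sit in the membrane without a kinase of their own or, in the TGF-β family, with one. Chains of the interleukin and interferon receptors hold JAK kinases, which on ligand binding phosphorylate the receptor and then STAT transcription factors; SOCS proteins are induced by these signals and shut them off. TGF-β receptors are serine/threonine kinases that phosphorylate SMAD proteins. In CD8+ T cells the IL-7 receptor α chain is high on naive and memory cells and low on most effector cells, and its gene is a known target of Foxo transcription factors, which Akt keeps out of the nucleus.

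Promoter windows of some of the receptors are printed here because forkhead and STAT proteins bind known short motifs. Il7r, Il6st and a probe set of Il6ra passed the thresholds given below in at least 1 comparison. Il21r passed in neither, and no window other than its own held a forkhead motif. RefSeq windows of 300 bases around the annotated start (build GRCm38.p6), most of each window lying upstream, were held for 9 of the 10 genes. Il10ra has no entry. The windows were searched on both strands for the forkhead motif TGTTTAC, its shorter form TGTTTA, which every TGTTTAC also matches, and the STAT motif TTCNNNGAA. The windows shown are chr15:9529827-9530126 on the minus strand for Il7r, chr7:125603179-125603478 on the plus strand for Il21r, chr3:89913147-89913446 on the minus strand for Il6ra and chr13:112463820-112464119 on the plus strand for Il6st. Each sequence is given 5′ to 3′ on the strand of its gene, in lower case with a motif match in capitals.
Il7r: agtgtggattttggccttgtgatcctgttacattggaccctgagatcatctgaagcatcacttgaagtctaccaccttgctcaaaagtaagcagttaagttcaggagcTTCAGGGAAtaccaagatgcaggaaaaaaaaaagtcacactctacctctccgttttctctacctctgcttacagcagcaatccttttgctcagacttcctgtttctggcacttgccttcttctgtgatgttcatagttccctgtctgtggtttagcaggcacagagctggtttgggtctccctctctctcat
Il21r: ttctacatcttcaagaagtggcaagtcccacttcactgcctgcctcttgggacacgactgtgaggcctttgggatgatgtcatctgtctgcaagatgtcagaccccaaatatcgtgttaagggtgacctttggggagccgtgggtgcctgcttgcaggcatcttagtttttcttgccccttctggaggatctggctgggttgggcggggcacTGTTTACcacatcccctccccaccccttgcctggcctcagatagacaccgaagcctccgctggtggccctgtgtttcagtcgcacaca
Il6ra: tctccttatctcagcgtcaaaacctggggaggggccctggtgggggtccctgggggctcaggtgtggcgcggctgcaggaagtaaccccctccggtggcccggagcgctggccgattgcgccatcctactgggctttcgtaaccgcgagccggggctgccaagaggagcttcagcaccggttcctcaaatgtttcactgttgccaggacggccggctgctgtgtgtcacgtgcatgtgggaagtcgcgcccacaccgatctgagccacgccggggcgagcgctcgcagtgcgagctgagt
Il6st: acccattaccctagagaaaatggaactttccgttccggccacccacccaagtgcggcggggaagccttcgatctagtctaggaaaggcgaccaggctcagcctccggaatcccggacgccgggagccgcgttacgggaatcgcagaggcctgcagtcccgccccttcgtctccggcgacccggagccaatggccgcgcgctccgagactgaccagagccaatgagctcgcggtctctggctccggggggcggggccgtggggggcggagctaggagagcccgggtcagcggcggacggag

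The Il7r window held 1 STAT motif, at position -142 from the start, and no forkhead motif. The Il21r window held 1 TGTTTAC, at position -38, and those of Il6ra and Il6st held none of the motifs. Over the 11 windows of the 9 genes there was 1 with each motif, where 3.65% of all 32851 windows hold TGTTTAC, 13.4% hold TGTTTA and 8.3% hold TTCNNNGAA. A match of letters is a description and not a binding site.

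The values below are the log2 signals as deposited. A change passed at a limma adjusted p under 0.05 over all 45037 probe sets and at least 1.5-fold, and is then called a rise or a fall. The p-values rest on the spread between these 3 cultures per group, which limma moderates over all probe sets. The AktI comparison was fitted without pairing the parts of a culture. That pairing entered as a replicate block among the alternatives. The background level, the 95th percentile of 80 probe sets for olfactory and vomeronasal receptors, was 4.446 in the PDK1 experiment and 4.993 in the AktI experiment. The representing probe set of all 10 receptors lay above it in both. Of the 24 probe sets, 17 lay above it in the PDK1 experiment and 20 in the AktI experiment, and 4 in neither. The array medians were 4.606 to 4.628 in the PDK1 experiment and 5.102 to 5.141 in the AktI experiment, so that the experiments were taken as normalized apart and only effects, not levels, are compared between them. Within a group, r between arrays was 0.9958 to 0.9978 over the probe sets; the precision of every value below is limited by having 3 arrays a group.

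In PDK1 null CTL 1 of the 10 receptors rose, Il7r, and none fell, where 1.01% of all genes rose, 0.357% fell and 1.36% passed in either direction. With AktI 2 of the 10 rose, Il7r and Il6st, and none fell, where 1.51% of all genes rose, 1.03% fell and 2.53% passed in either direction. Counted by probe set, 2 of 24 rose in PDK1 null CTL (0.737% of all probe sets) and 6 of 24 rose with AktI (1.2%). At an adjusted p under 0.05 with no fold minimum, 3 of the 10 were higher in PDK1 null CTL, Il7r, Ifngr1 and Il10ra, against 2.37% of all genes in either direction. By the same measure 6 of the 10 differed with AktI, against 6.59% of all genes, Il7r, Il6st, Il4ra and Tgfbr1 being higher and Il15ra and Il21r lower. The PDK1 null and Cre control arrays did not overlap for 6 of the 10 receptors (24.7% of all genes), and the AktI and wild type arrays did not overlap for 8 of the 10 (27.4% of all genes). The median log2 fold change of the 10 was 0.20 in PDK1 null CTL and 0.17 with AktI, where the median of all genes was -0.009 and -0.016.

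**Figure D1:**
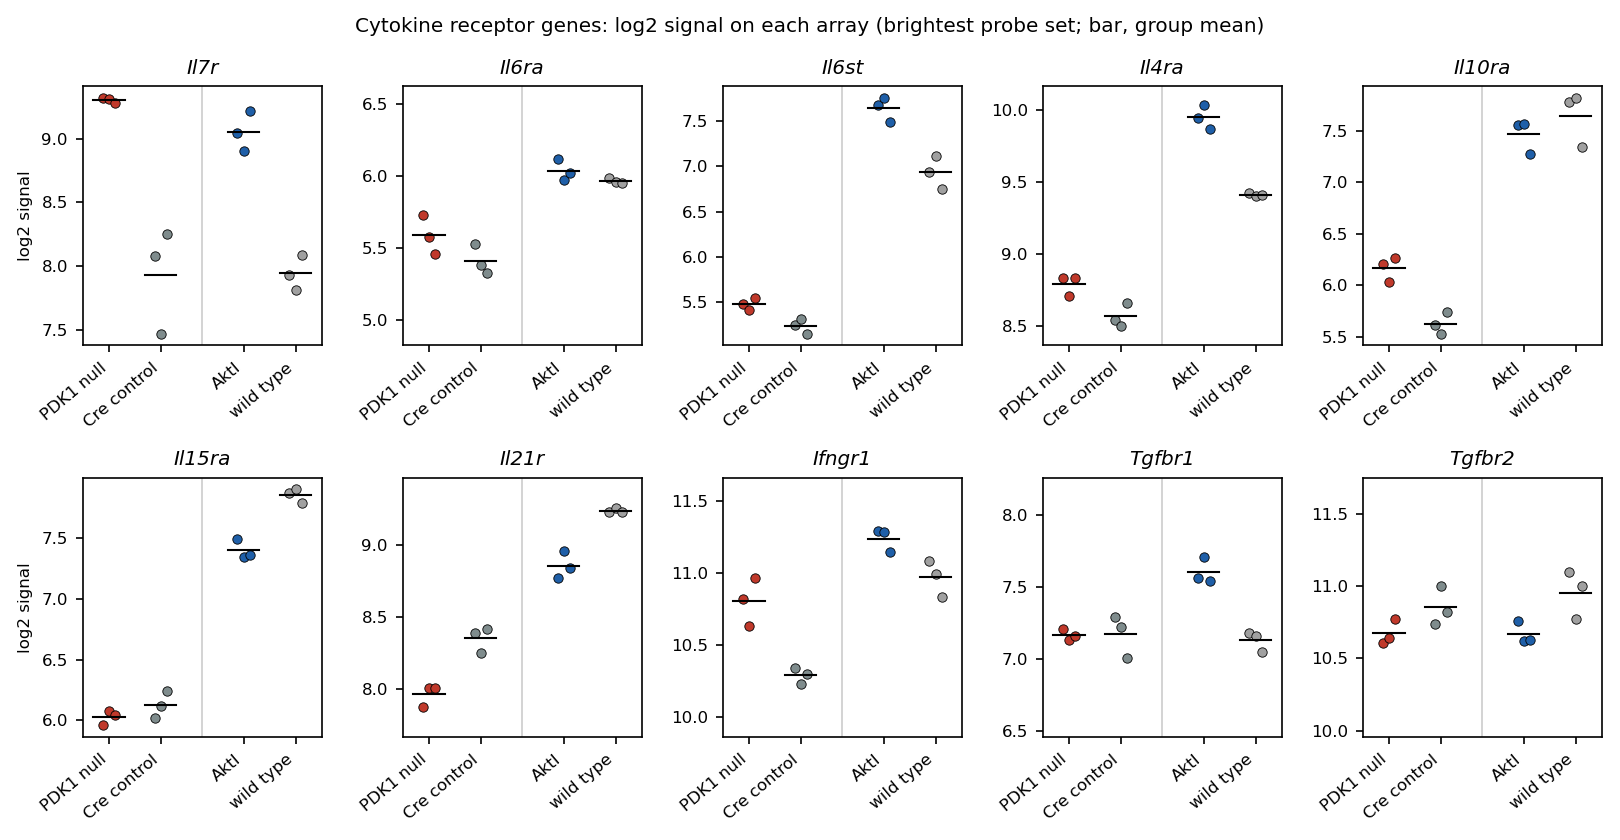
Log2 signal of the representing probe set of each receptor on each of the 12 arrays, with a bar at each group mean; each panel has its own axis, and a grey line parts the separately normalized experiments. Il7r sits between 9.28 and 9.32 in PDK1 null and between 7.47 and 8.25 in Cre control cultures, and between 8.90 and 9.22 in AktI and between 7.81 and 8.09 in wild type cultures.

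Il7r, which encodes the IL-7 receptor α chain (CD127) that joins the common γ chain to carry survival signals of IL-7, was the receptor that passed in both comparisons. Its signal was 9.32, 9.31 and 9.28 in PDK1 null replicates 1 to 3, against 8.08, 7.47 and 8.25 in Cre control replicates 1 to 3. The PDK1 null cultures lay close together (SD 0.018) and all above the Cre control cultures, which were spread more widely (SD 0.413, n = 3 each). Il7r rose 2.58-fold (log2 fold change 1.37, SE 0.176, adjusted p = 0.0107). Without PDK1 null replicate 3 the call of this probe set was lost, with an adjusted p of 0.0518 at a log2 fold change of 1.38. Over all genes, 73 passed higher without that array, against 183 with all arrays. AktI cultures of mice 1 to 3 had 9.04, 8.90 and 9.22, against 7.93, 7.81 and 8.09 in the wild type cultures of the same mice. Here too the groups did not overlap, and the rise was 2.16-fold (log2 fold change 1.11, SE 0.104, adjusted p = 0.000718) and nearly the same in each mouse, 1.11, 1.09 and 1.13 on the log2 scale. It passed with any 1 array left out, with an adjusted p of 0.00177 to 0.00621.

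The second probe set of Il7r, 1448576_at, gave the rises again. It read 7.94, 7.88 and 7.78 in PDK1 null cultures, against 6.30, 5.95 and 6.65 in Cre control cultures, a 2.97-fold rise (log2 fold change 1.57, SE 0.156, adjusted p = 0.00373). This one passed with any 1 array left out, with an adjusted p up to 0.0237. It read 7.58, 7.44 and 7.68 in AktI cultures, against 6.42, 6.30 and 6.79 in wild type cultures, a 2.09-fold rise (log2 fold change 1.06, SE 0.127, adjusted p = 0.00235). The effect in PDK1 null CTL minus the effect of AktI was 0.26 on the log2 scale for the representing probe set (SE 0.223, adjusted p = 0.763) and 0.51 for the second (SE 0.22, adjusted p = 0.45), and neither difference passed.

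The genes whose signal followed that of Il7r most closely were looked up among 11448 other genes above background in both experiments, after each experiment was centred on its own mean. Pearson's r over the 12 arrays was highest for Gprin3 (0.979), Wdr44 (0.973), Hsd17b11 (0.964), Kcnj8 (0.964) and S100a10 (0.964). The 12 arrays fall into groups, so these correlations mostly carry the group differences and are given as a description with no test. Gprin3 had a log2 fold change of 1.33 in PDK1 null CTL and 0.90 with AktI, and Kcnj8, which encodes a potassium channel, 0.92 and 0.90. The other 3 had 0.40 to 0.97 in PDK1 null CTL and 0.20 to 0.56 with AktI.

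The IL-6 receptor is made of an α chain that binds IL-6, encoded by Il6ra, and the signal-transducing chain gp130, encoded by Il6st, which the receptors of IL-11, LIF and oncostatin M use as well. Il6st read 7.68, 7.76 and 7.49 in AktI cultures, against 6.94, 7.12 and 6.75 in wild type cultures. Every AktI culture lay above every wild type culture, and the rise was 1.63-fold (log2 fold change 0.70, SE 0.109, adjusted p = 0.00827), with 0.74, 0.64 and 0.73 in mice 1 to 3. In PDK1 null cultures Il6st read 5.48, 5.41 and 5.54, against 5.25, 5.31 and 5.15 in Cre control cultures. These groups did not overlap either, but the log2 fold change of 0.24 did not pass (SE 0.0741, adjusted p = 0.169). The effect in PDK1 null CTL minus that of AktI was -0.47 (SE 0.138, adjusted p = 0.213), so a difference between the responses was not established.

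The 3 other probe sets of Il6st lay in the same direction with AktI, and 2 of them passed. Probe set 1460295_s_at read 6.12, 6.28 and 5.97 in AktI cultures, against 5.46, 5.62 and 5.46 in wild type cultures, a 1.53-fold rise (log2 fold change 0.61, SE 0.0928, adjusted p = 0.00743) that was under 1.5-fold without AktI replicate 2 (0.53) or wild type replicate 3 (0.58). Probe set 1437303_at read 6.06, 6.12 and 5.57 in AktI cultures, against 5.40, 5.19 and 4.72 in wild type cultures, of which 1 array lay below background (log2 fold change 0.82, SE 0.191, adjusted p = 0.0469). This call was lost when any 1 array other than AktI replicate 3 was left out, with an adjusted p between 0.0502 and 0.152, and under quantile normalization (adjusted p = 0.0548). Probe set 1421239_at had a log2 fold change of 0.33 (SE 0.103, adjusted p = 0.125). In PDK1 null CTL these 3 probe sets had log2 fold changes of 0.13, 0.33 and -0.05, none with an adjusted p under 0.278, and 1460295_s_at lay below background in both groups.

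The probe sets of Il6ra disagreed. The representing one, 1422270_a_at, read 6.12, 5.97 and 6.02 in AktI cultures, against 5.99, 5.96 and 5.95 in wild type cultures. These values overlap, and the log2 fold change was 0.07 (SE 0.067, adjusted p = 0.676). Probe set 1452416_at read 5.89, 5.88 and 5.47 in AktI cultures, against 4.95, 4.83 and 5.05 in wild type cultures. All AktI arrays were above background and 1 of 3 wild type arrays was; the rise was 1.75-fold (log2 fold change 0.80, SE 0.119, adjusted p = 0.00657) and passed with any 1 array left out, with an adjusted p up to 0.0315. It was 0.95, 1.04 and 0.42 in mice 1 to 3. The mean of both probe sets had a log2 fold change of 0.44 (adjusted p = 0.0101), under 1.5-fold. In the PDK1 experiment the representing probe set read 5.73, 5.58 and 5.46 in PDK1 null cultures, against 5.53, 5.38 and 5.33 in Cre control cultures (log2 fold change 0.17, SE 0.092, adjusted p = 0.436), and 1452416_at lay below background in both groups. The difference of the effects was 0.10 for the representing probe set (SE 0.114, adjusted p = 0.827).

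**Figure D2:**
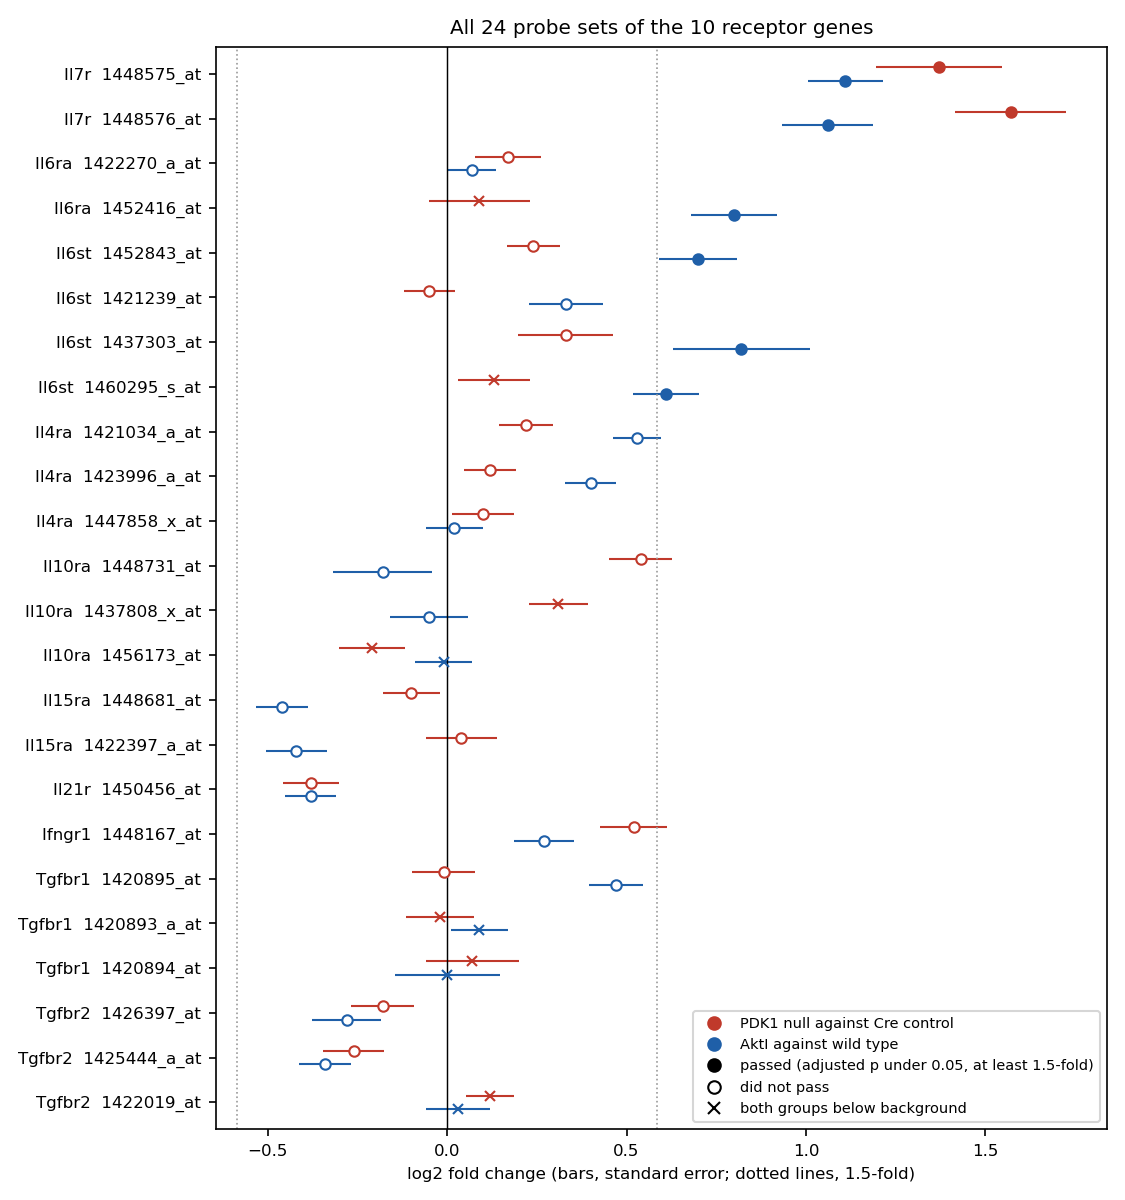
Log2 fold change with its standard error for all 24 probe sets, PDK1 null against Cre control in red and AktI against wild type in blue; filled points passed, open points did not, and crosses mark probe sets below background in both groups. Both probe sets of Il7r passed in both comparisons, and 1 of 2 for Il6ra and 3 of 4 for Il6st passed with AktI, where none of these 6 passed in PDK1 null CTL.

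Il4ra encodes the α chain that IL-4 and IL-13 receptors have in common. It read 9.94, 10.03 and 9.87 in AktI cultures, against 9.42, 9.40 and 9.41 in wild type cultures. The groups lay well apart, yet the difference was 1.45-fold (log2 fold change 0.53, SE 0.0669, adjusted p = 0.00307) and below the fold minimum, with 0.52, 0.62 and 0.46 in mice 1 to 3; the mean of its 3 probe sets had 0.32 (adjusted p = 0.0129). In PDK1 null cultures it read 8.83, 8.71 and 8.83, against 8.54, 8.50 and 8.66 in Cre control cultures, again with no overlap (log2 fold change 0.22, SE 0.0753, adjusted p = 0.203). Its probe set 1423996_a_at had 0.40 with AktI (SE 0.0703, adjusted p = 0.0139) and 0.12 in PDK1 null CTL (SE 0.0719, adjusted p = 0.513). Probe set 1447858_x_at had 0.02 with AktI (adjusted p = 0.943) and 0.10 in PDK1 null CTL (adjusted p = 0.674).

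Il10ra encodes the chain that binds IL-10, a cytokine that restrains immune responses. It read 6.21, 6.03 and 6.26 in PDK1 null cultures, against 5.61, 5.53 and 5.74 in Cre control cultures. All PDK1 null cultures were higher, by 1.45-fold (log2 fold change 0.54, SE 0.088, adjusted p = 0.024), and it passed when PDK1 null replicate 2 was left out (0.61, adjusted p = 0.018). With any other array left out it did not pass (adjusted p up to 0.102), and the mean of its probe sets, of which the others lay below background, had 0.21 (adjusted p = 0.119). AktI cultures read 7.56, 7.57 and 7.27, against 7.78, 7.82 and 7.34 in wild type cultures. These groups overlapped, with a log2 fold change of -0.18 (SE 0.137, adjusted p = 0.568) and values of -0.22, -0.25 and -0.08 in mice 1 to 3. The effect in PDK1 null CTL minus that of AktI was 0.72 on the log2 scale (SE 0.176, adjusted p = 0.118). The adjusted p of this difference was 0.0196 with the replicate block, 0.0464 with trend and robust settings, and 0.025 without wild type replicate 3. The block holds each mouse of the AktI experiment together. It also pairs PDK1 null with Cre control arrays, which come from different mice and share only a replicate number. With the other alternatives the difference of Il10ra did not pass. Its probe set 1437808_x_at had 0.31 in PDK1 null CTL, with both groups below background, and -0.05 with AktI (SE 0.108, adjusted p = 0.87), and 1456173_at lay below background throughout.

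Ifngr1 encodes the chain that binds interferon γ. It read 10.82, 10.63 and 10.96 in PDK1 null cultures, against 10.34, 10.23 and 10.30 in Cre control cultures. The groups did not overlap, and the difference was 1.43-fold (log2 fold change 0.52, SE 0.0937, adjusted p = 0.0362), above the fold minimum only without PDK1 null replicate 2 (0.60, adjusted p = 0.0158); with other arrays left out the adjusted p reached 0.143. AktI cultures read 11.29, 11.28 and 11.14, against 11.08, 10.99 and 10.83 in wild type cultures, also with no overlap (log2 fold change 0.27, SE 0.0839, adjusted p = 0.128). The difference of the effects was 0.25 (SE 0.13, adjusted p = 0.549).

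Il21r and Il15ra lay on the low side. Il21r, whose product pairs with the common γ chain to bind IL-21, read 7.88, 8.01 and 8.01 in PDK1 null cultures, against 8.39, 8.25 and 8.42 in Cre control cultures. It read 8.77, 8.96 and 8.84 in AktI cultures, against 9.23, 9.26 and 9.23 in wild type cultures. Neither pair of groups overlapped, and the values lay 1.31-fold lower in PDK1 null CTL (log2 fold change -0.38, SE 0.0775, adjusted p = 0.0511) and 1.30-fold lower with AktI (log2 fold change -0.38, SE 0.0704, adjusted p = 0.0186). These sizes are below the fold minimum, and with 1 array left out the adjusted p with AktI reached 0.0748. The difference of the effects had an SE of 0.102 (adjusted p = 0.994).

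Il15ra encodes the chain that binds IL-15 and presents it to neighbouring cells. It read 7.49, 7.34 and 7.36 in AktI cultures, against 7.87, 7.90 and 7.79 in wild type cultures. All AktI cultures were lower, by 1.37-fold (log2 fold change -0.46, SE 0.0713, adjusted p = 0.00852), with -0.37, -0.56 and -0.43 in mice 1 to 3. Its second probe set had -0.42 (SE 0.0841, adjusted p = 0.0254). In PDK1 null cultures Il15ra read 5.96, 6.08 and 6.04, against 6.02, 6.12 and 6.24 in Cre control cultures, which overlap (log2 fold change -0.10, SE 0.0793, adjusted p = 0.627). The second probe set had 0.04 there (SE 0.0983, adjusted p = 0.908), and the difference of the effects was 0.36 and 0.46 for the 2 probe sets (adjusted p = 0.212 and 0.208).

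The TGF-β receptor is built of a type II chain that binds the ligand, from Tgfbr2, and a type I kinase that it activates, from Tgfbr1. The transcripts lay on opposite sides with AktI. Tgfbr1 read 7.56, 7.71 and 7.54 in AktI cultures, against 7.18, 7.16 and 7.05 in wild type cultures, higher in every AktI culture but by 1.39-fold only (log2 fold change 0.47, SE 0.0747, adjusted p = 0.00898). In PDK1 null cultures it read 7.21, 7.13 and 7.16, against 7.29, 7.22 and 7.01 in Cre control cultures, which overlap (log2 fold change -0.01, SE 0.0873, adjusted p = 0.981). The effect in PDK1 null CTL minus that of AktI was -0.48 (SE 0.116, adjusted p = 0.117). The other 2 probe sets of Tgfbr1 lay below background in all groups.

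Tgfbr2 read 10.76, 10.62 and 10.63 in AktI cultures, against 11.10, 10.77 and 11.00 in wild type cultures. The AktI cultures were all lower, by a narrow margin (log2 fold change -0.28, SE 0.0955, adjusted p = 0.153). In PDK1 null cultures it read 10.61, 10.64 and 10.77, against 10.74, 11.00 and 10.82 in Cre control cultures, with an overlap (log2 fold change -0.18, SE 0.0881, adjusted p = 0.376). Its probe set 1425444_a_at had -0.34 with AktI (SE 0.0721, adjusted p = 0.0329) and -0.26 in PDK1 null CTL (SE 0.0846, adjusted p = 0.181), and 1422019_at lay below background in all groups.

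**Figure D3:**
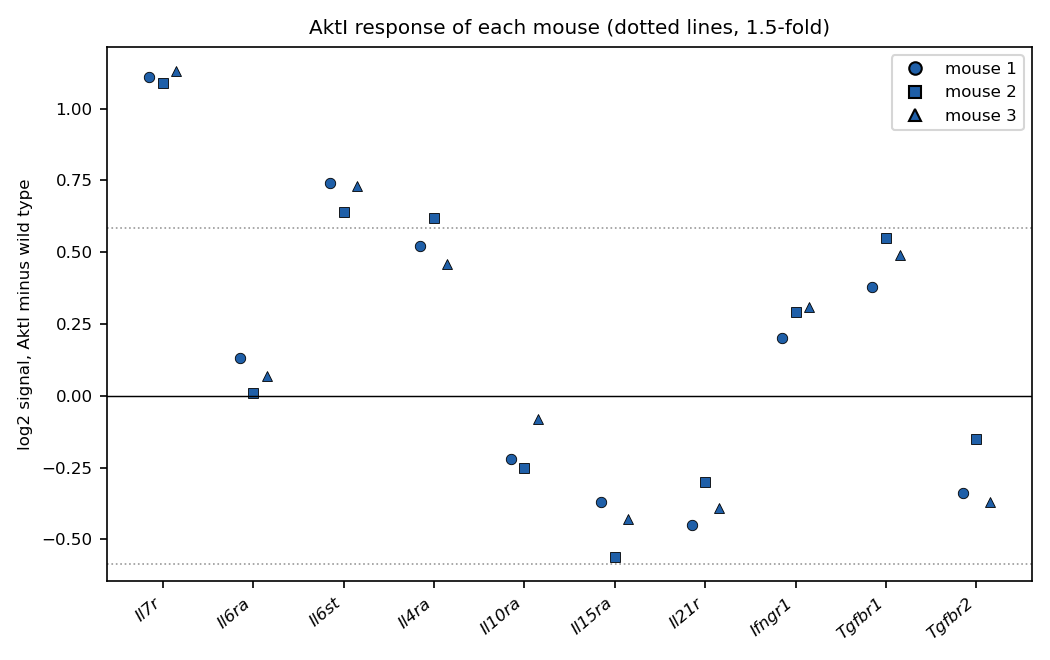
AktI minus wild type log2 signal of each receptor's representing probe set in mice 1, 2 and 3, with dotted lines at 1.5-fold. Il7r lies between 1.09 and 1.13 and Il6st between 0.64 and 0.74 in all 3 mice, and Il10ra, Il15ra, Il21r and Tgfbr2 lie below 0 in all 3.

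Whether the receptors answered Pdpk1 deletion and AktI differently was tested as the difference of the effects, which passed for 0 of the 10 receptors by limma, where 0.522% of all genes passed. At an unadjusted p under 0.05 it held for 5 of the 10, Tgfbr1, Il4ra, Il15ra, Il10ra and Il6st, against 11.1% of all genes. Trend and robust settings and the replicate block each passed 1 receptor, Il10ra.

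The chains that pair with these receptors were counted next, from lists of known partners, ligands and signalling genes. None of 6 measured partner chains passed in either comparison (median log2 fold change 0.17 in PDK1 null CTL and -0.11 with AktI). Tgfbr3, the TGF-β co-receptor betaglycan, had 0.44 in PDK1 null CTL (adjusted p = 0.0204, under 1.5-fold) and -0.10 with AktI (adjusted p = 0.573), with a difference of the effects of 0.54 (adjusted p = 0.0337, under 1.5-fold). That difference reached the fold minimum and passed without AktI replicate 2 (0.60, adjusted p = 0.0357) or wild type replicate 3 (0.59, adjusted p = 0.0379). None of 4 other receptors of the gp130 family passed (medians -0.04 and -0.02). Il27ra, which joins gp130 to bind IL-27, had 0.18 in PDK1 null CTL (adjusted p = 0.302) and -0.04 with AktI (adjusted p = 0.841).

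Among 15 ligands of the receptors, 0 passed in PDK1 null CTL (median -0.02) and 2 fell with AktI (median -0.12). Ifng, which encodes the ligand of the Ifngr1 product, fell by 2.10 on the log2 scale with AktI (SE 0.152, adjusted p = 0.000211) and had -0.95 in PDK1 null CTL (adjusted p = 0.301), where it passed without PDK1 null replicate 2 (-1.47, adjusted p = 0.0149). Il10, the ligand of the Il10ra product, fell by 1.69 on the log2 scale with AktI (SE 0.184, adjusted p = 0.00155) and had 0.07 in PDK1 null CTL (adjusted p = 0.957). The difference of the effects passed for neither on all arrays (adjusted p = 0.419 for Ifng and 0.104 for Il10), and for Il10 it passed without PDK1 null replicate 3 (2.09, adjusted p = 0.0264). Il7, Tslp, Il6, Il13, Il15, Il21 and Tgfb2 lay below background in both experiments.

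Of 10 JAK kinases and STAT factors measured, Stat4, the factor activated by IL-12, rose in both comparisons, with 0.73 in PDK1 null CTL (adjusted p = 0.0213) and 0.87 with AktI (adjusted p = 0.00197). The call in PDK1 null CTL held without PDK1 null replicate 2 and not without any other 1 array (adjusted p = 0.0518 to 0.0895). Among 14 inhibitors of these signals, Socs3, which binds gp130 and shuts off IL-6 signals, rose by 0.83 in PDK1 null CTL (adjusted p = 0.0271) and by 0.84 with AktI (adjusted p = 0.00122). Its call in PDK1 null CTL likewise held only without PDK1 null replicate 2 when 1 array was left out (adjusted p = 0.0528 to 0.116 otherwise). Socs2 rose by 0.95 with AktI (adjusted p = 0.00026), though the mean of its probe sets had 0.58, under 1.5-fold, and it had 0.23 in PDK1 null CTL (adjusted p = 0.493). The difference of the Socs2 effects was -0.72 (adjusted p = 0.104). It passed with the replicate block (adjusted p = 0.0493) and without PDK1 null replicate 1 (-0.87, adjusted p = 0.0079). That block pairs arrays of the same mouse in the AktI experiment, and arrays of different mice by number in the PDK1 experiment. None of the 11 SMAD factors and inhibitors passed (median 0.18 in both comparisons), with Bambi, a decoy TGF-β receptor, at -0.24 in PDK1 null CTL (adjusted p = 0.574) and -0.56 with AktI (adjusted p = 0.141). Without wild type replicate 1 the value of Bambi with AktI was -0.80 and passed (adjusted p = 0.0081).

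Of 12 known target genes of these cytokines, 1 rose and 1 fell in each comparison (medians 0.13 in PDK1 null CTL and 0.18 with AktI), the gene counted as rising with AktI being below background. Irf8, a transcription factor induced by interferon γ, fell by 0.91 on the log2 scale in PDK1 null CTL (adjusted p = 0.0189) and by 1.29 with AktI (adjusted p = 0.000222). Its call in PDK1 null CTL was lost without Cre control replicate 2 or 3 or PDK1 null replicate 1 or 3 (adjusted p = 0.0561 to 0.0777). Itgae, the integrin chain CD103 that TGF-β induces, rose by 0.98 in PDK1 null CTL (adjusted p = 0.00373), and in the AktI experiment it lay below background in both groups, so its fold there was not read. Of 9 genes listed as regulators of Il7r transcription, Bach2, a repressor of effector genes, rose by 1.10 in PDK1 null CTL (SE 0.108, adjusted p = 0.00373) and by 1.15 with AktI (SE 0.0731, adjusted p = 0.000129). Gfi1, a repressor of Il7r, fell by 0.74 with AktI (adjusted p = 0.00256) and had -0.51 in PDK1 null CTL (adjusted p = 0.0291, under 1.5-fold). Foxo3 rose by 0.67 with AktI (adjusted p = 0.0212), a call lost without wild type replicate 1 or 3 or AktI replicate 2 or 3 (adjusted p = 0.064 to 0.075) and by the mean of its probe sets (0.44, under 1.5-fold), and had 0.06 in PDK1 null CTL (adjusted p = 0.843). Foxo1 had -0.14 in PDK1 null CTL (adjusted p = 0.371) and -0.27 with AktI (adjusted p = 0.109).

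**Figure D4:**
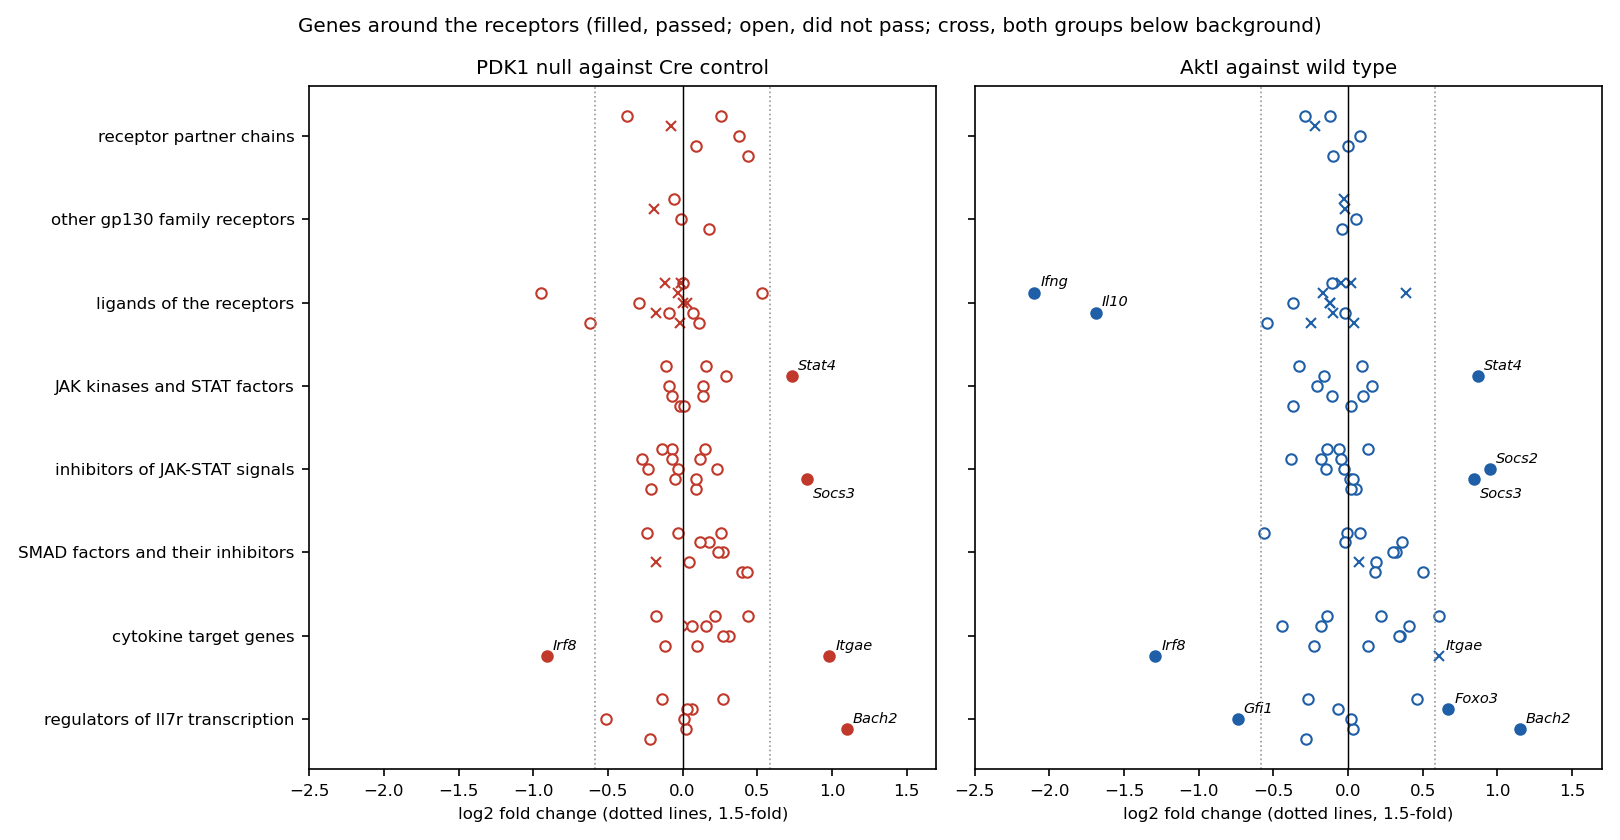
Log2 fold change of each measured gene of 8 lists around the receptors, PDK1 null against Cre control on the left and AktI against wild type on the right; filled points passed and carry their name, open points did not, and crosses lie below background in both groups, Itgae in the AktI panel among them. Stat4, Socs3 and Bach2 lie to the right and Irf8 to the left in both panels, and Ifng and Il10 lie far to the left with AktI.

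The cultures were bulk RNA, in which fewer cells of a type and less RNA per cell cannot be told apart. All 9 T cell and CTL markers lay above background in both experiments. None of them passed in PDK1 null CTL, and Prf1 alone passed with AktI (log2 fold change -2.20, limma adjusted p = 0.000164). Under 1.5-fold, Gzmb had -0.34 with AktI (adjusted p = 0.0192) and Cd8b1 had 0.50 (adjusted p = 0.0035). None of 4 helper T cell markers passed. Summed over 7 B cell markers, the linear signal was 832 to 1160 in PDK1 null and 665 to 828 in Cre control cultures. It was 1790 to 3340 in AktI and 2580 to 5360 in wild type cultures. None of the 7 passed, and Ms4a1 lay below background throughout. Ighm was by far the brightest, with a log2 mean of 11.75 in wild type CTL against 5.92 for Cd79b, so these sums mostly carry Ighm. With AktI, Ighm had -0.57 and Cd22 -0.10, while Cd79b had 0.34, Cd79a 0.10, Blk 0.07 and Pax5 0.01. Summed over 8 myeloid markers, the linear signal was 293 to 353 in PDK1 null and 291 to 301 in Cre control cultures. It was 295 to 314 in AktI and 382 to 465 in wild type cultures. Cd68 fell by 1.30 on the log2 scale with AktI (adjusted p = 0.00563), and no other myeloid marker passed in either comparison. With AktI, Csf1r had -0.05 and Fcgr1 had 0.01. Itgam, Adgre1 and Csf3r lay below background in both experiments, and Lyz2 and Cd14 did in the AktI experiment. Over 5 basophil and mast cell markers the linear signal was 177 to 295 in PDK1 null and 200 to 304 in Cre control cultures. It was 104 to 119 in AktI and 124 to 178 in wild type cultures. Mcpt8 alone passed, being lower in AktI CTL, where its mean lay below background. Cpa3, Fcer1a and Ms4a2 lay below background in the AktI experiment, and Gata2 had -0.05 with AktI. None of 5 dendritic cell markers passed in either comparison. Of these, Flt3, Itgax and Siglech lay above background in both experiments, and Zbtb46 and Xcr1 lay below it in both. Both NK cell markers measured lay below background. Il6ra, Il10ra and Ifngr1 are expressed by such cells too, and the part of other cells in the receptor signals was not tested.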

How the data were processed

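Total RNA of 12 CTL cultures was hybridized to Affymetrix mouse arrays, 1 array per culture, and the labels give 4 groups of 3. The authors deposited log2 signals per probe set, which Affymetrix Expression Console 1.1 computed by robust multichip averaging; these were used as deposited, and no genome build is given in the sources used here. Of 45101 probe sets, 64 controls were left out and 45037 were tested; 34945 of them name 1 gene, 932 several and 9160 none. A gene is represented by its brightest single-gene probe set over the 12 arrays.

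Fits were made with limma 3.58.1 in R 4.3.3 (lmFit and eBayes, no covariate). The 6 arrays of an experiment entered each comparison, with Benjamini-Hochberg adjustment over the tested probe sets, and the 1.5-fold minimum of the study was kept; its own test, SAM, was not run. The difference of the effects is an interaction contrast over 4 group means and all 12 arrays. A probe set with both group means below the background level of its experiment was not read for its own fold. The counts, medians and sums of the gene lists include such genes. The code was tested on simulated data.

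The study added AktI to part of the culture of each of 3 wild-type mice, and the labels give replicate numbers. AktI and wild type arrays of equal number were taken as the same mouse. After removal of the group means, arrays of equal number correlated with r of 0.1697, 0.03432 and 0.06067, against -0.102 to 0.03828 for other pairs. The alternatives were trend and robust settings, quantile normalization, median scaling, dim probe sets left out, other fold minimums, the mean of a gene's probe sets, a replicate block, a single model of the 12 arrays, and each array left out in turn; any probe set of a gene was added after the data were seen. The named genes are all receptors, every list gene past the threshold or, where none passed, the largest fold above background, and the 5 genes most correlated with Il7r; Foxo1 and the markers named were added after their values were seen. The receptors and the lists were chosen with earlier results of these data known, and the lists were written from general knowledge. Promoter windows are from RefSeq; a planned search of the receptor proteins was not run.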

Additional observations from a re-analysis of the deposited data

Results flagged for a closer look

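In the main fit, which had no replicate block, no receptor passed the test of the difference between the experiments. Il10ra passed with the block (0.72, limma adjusted p = 0.0196) and with trend and robust settings (adjusted p = 0.0464). It also passed without wild type replicate 3 (0.88, adjusted p = 0.025). Among the cell type markers measured beside the receptors, 2 passed in the main fit, and they are given as values. Cd68, a marker of myeloid cells, had a log2 fold change of 0.31 in PDK1 null CTL (adjusted p = 0.319) and of -1.30 with AktI (adjusted p = 0.00563), a difference of the effects of 1.61 (limma adjusted p = 0.0133). Prf1, which encodes perforin, had -0.67 in PDK1 null CTL (adjusted p = 0.14) and -2.20 with AktI (adjusted p = 0.000164), a difference of 1.53 (adjusted p = 0.026).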

How the results depend on the processing

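The rise of Il7r with AktI passed under every alternative run, as did that of Il6st other than at a 2-fold minimum; the rise of Il7r in PDK1 null CTL was lost only without PDK1 null replicate 3. In PDK1 null CTL the receptors that passed higher numbered 1, 3 with no fold minimum and 0 to 3 with 1 array left out. With AktI 2 passed higher, 4 with no fold minimum and 1 at 2-fold, and 2 passed lower with no fold minimum, against 0. The difference of the effects passed for 1 receptor, Il10ra, against 0, with trend and robust settings, with the replicate block, and in the range of 0 to 1 with 1 array left out. Over all genes, 183 were higher in PDK1 null CTL (297 with no fold minimum, 58 at 2-fold, 73 to 243 with 1 array left out) and 65 lower (135, 18 and 25 to 85). With AktI 274 were higher (665 with no fold minimum, 93 at 2-fold) and 187 lower (534 and 58). The difference passed for 58 genes higher (22 at 2-fold, 25 to 69 with 1 array left out) and 37 lower (56 with trend and robust settings, 16 at 2-fold, 58 by any probe set of a gene). Fold minimums change counts by their construction; the cause of the other shifts was not tested. Several values near 0, none of which had passed, changed sign: Tgfbr1 in PDK1 null CTL (0.01 by the mean of its probe sets, -0.09 to 0.05 with 1 array left out), the differences of Il6ra (-0.31 by the mean of probe sets), Il21r (0.01 under quantile normalization, -0.06 to 0.05) and Socs3 (0.01 and -0.11 to 0.14), and, with 1 array left out, the differences of Bach2 (-0.14 to 0.06) and Tgfbr2 probe set 1425444_a_at (-0.01 to 0.12). The same held in PDK1 null CTL for Il10 (-0.22 to 0.41), Foxo3 (-0.03 to 0.12) and Il15ra probe set 1422397_a_at (-0.03 to 0.13), and with AktI for Il27ra (-0.09 to 0.02), Il4ra probe set 1447858_x_at (-0.02 to 0.09) and Il10ra probe set 1437808_x_at (-0.11 to 0.04). Probe sets below background were left out of this comparison after their values were seen. The replicate block changed the call of the differences of Il10ra and Socs2 and of no other receptor or named gene; for the PDK1 experiment the replicates share only a number (r of -0.01102 to 0.04956 for equal numbers, -0.07399 to 0.04101 for others), and the block gave 188 genes higher and 69 lower.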
